A study of Drosophila melanogaster with 96 samples.

Results

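Oxidative phosphorylation makes most of the ATP of a fly head, and nearly all of its subunits are made from nuclear genes. These nuclear subunit genes were chosen by symbol: names beginning with ND-, COX and a digit, UQCR, ATPsyn or SdhA to SdhD, with 1 symbol of the ATP synthase family left out by the rule. Among 17698 deposited genes 79 symbols matched, and 65 of them had at least 1 TPM (transcript abundance scaled to a fixed library total) in at least 24 of 96 libraries. The 65 are 33 genes of complex I, 4 of complex II, 7 of complex III, 10 of complex IV and 11 of complex V. Another 14 were not tested: ND-B8 and 13 copies, that is genes whose symbol adds an L to that of a subunit (ND-20L, ND-24L, ND-49L, ND-51L1, ND-51L2, ND-B14.5AL, SdhAL, SdhBL, UQCR-14L, COX5BL, ATPsynCF6L, ATPsynGL and ATPsynbetaL). The rule itself uses no expression value beyond this minimum, but it was set with earlier results of these data known.

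Complexes I and II pass electrons from NADH and from succinate to ubiquinone, complex III passes them on to cytochrome c, and complex IV to oxygen. Complexes I, III and IV pump protons across the inner mitochondrial membrane, and complex V, the ATP synthase, lets them return and makes ATP. A small part of the subunits is encoded by mitochondrial DNA, so complexes I, III, IV and V are built from products of both genomes, while complex II is wholly nuclear.

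The libraries come from heads of adult Drosophila melanogaster aged 3 to 5 days, with 24 libraries each for control and Achl RNAi flies of either sex. The labels give neither the control construct nor the driver of the RNAi. Flies were kept at 25 °C in cycles of 12 h light and 12 h dark and moved to constant darkness 24 h before the first collection. Heads were then taken every 2 h from circadian time 24 (CT24) to CT70. Each library was made from 200 ng of RNA from a pool of 7 to 8 heads, with poly(A) selection and strand marking, and each group has 1 library at each CT. The values are TPM, so each is a share of a fixed total and the depth of each library is unknown. With no replicate at any CT, SD measures the spread of 24 libraries over time. Standard errors (SE) come from fits of all groups together, with 1 spread per gene shared by the groups. That spread is of libraries over time around a fitted 24 h curve. In bulk heads, fewer cells of a type and less RNA per cell cannot be told apart.

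Achl itself had 29.4 to 104.9 TPM (median 69.5) in female controls and 10.1 to 21.01 (median 15.9) in female RNAi. In males it had 16.56 to 143.5 TPM (median 74.8) in controls and 7.66 to 33.8 (median 22.2) in RNAi. The groups did not overlap in females and overlapped in males, and Achl fell in both sexes (log2 change −2.01 and −1.63, SE 0.10 each, limma adjusted p 3.45e-31 and 1.94e-25). mt:lrRNA, the large ribosomal RNA of mitochondria, split the female libraries at 50000 TPM. On the first day (CT24 to CT46) 10 control and 9 RNAi female libraries were above it, and on the second day (CT48 to CT70) none of the 12 of either group was. All male libraries were above it, with medians of 117697 TPM in controls and 118520 TPM in RNAi. Day and mitochondrial rRNA level therefore largely go together in females and cannot be cleanly told apart.

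Together the 65 genes made up between 1.08% and 1.90% of all TPM. Their summed level was 12375 to 18444 TPM (median 15985) in female controls and 10770.1 to 18994 (median 13720) in female RNAi. In males it was 11879 to 18873 TPM (median 16287) in controls and 10883 to 14862 (median 12607) in RNAi. The RNAi medians were the lower ones in both sexes, and the ranges overlapped. The sum was carried by a few small subunits. ND-MLRQ (mean 1767 TPM over 96 libraries) and ND-AGGG (1316) are accessory subunits of complex I by name, although the mammalian counterpart of ND-MLRQ has been assigned to complex IV. Next came ATPsynC (1124), which forms the proton-carrying ring of the ATP synthase, and UQCR-11 (793), UQCR-14 (585) and COX7C (571), small subunits of complexes III and IV. The 5 copies that were tested were near the low end, at a mean of 3.92 TPM for UQCR-11L, 2.97 for COX4L, 1.53 for COX7AL, 0.99 for ATPsynepsilonL and 0.69 for COX6AL. COX6AL lies within Cyp4aa1 and UQCR-11L within Acsl on the same strand, so the source of their reads is uncertain. ND-15, COX6B, ND-MNLL, ND-MWFE and ATPsynC also overlap a tested gene on the same strand, in part or in whole. Every subunit other than the copies had a mean of at least 12.4 TPM.

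**Figure D1:**
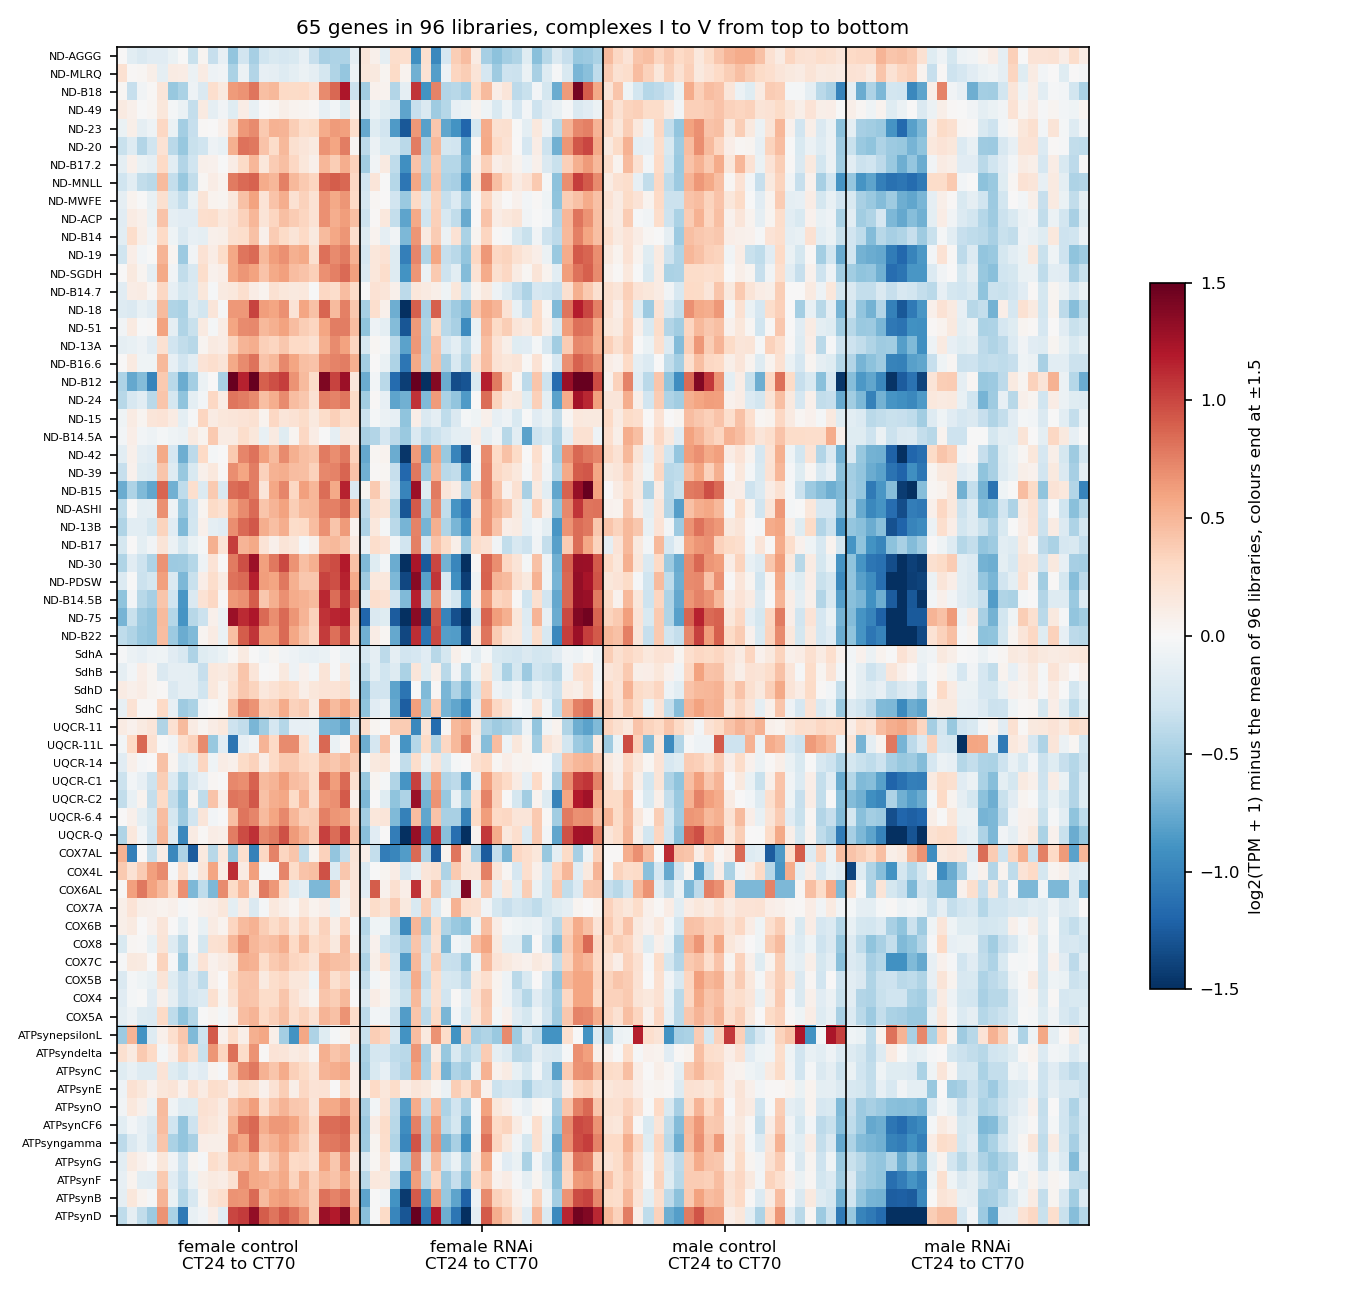
Level of each of the 65 genes in each of the 96 libraries, as log2(TPM + 1) minus the gene's mean over all libraries (red above, blue below). Columns are libraries in order of CT within each group. Most genes share the same high and low libraries, and ND-AGGG, ND-MLRQ and UQCR-11 are among those that run the other way in females.

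Most members rose and fell in the same libraries, but over very different ranges. Among the 60 members with a mean above the copies, 7 were in the 10 most variable of every group: ND-B12, ND-75, ATPsynD, UQCR-Q, ND-30, ND-B22 and ND-PDSW. Their coefficients of variation lay between 29.5% and 77.6%. Another 7 were in the 10 least variable of every group: SdhA, ND-49, ND-15, SdhB, COX7A, ATPsynE and ND-B14.7, with coefficients between 6.70% and 18.6%. ND-75, an iron-sulfur subunit of complex I, ran from 6.57 TPM at CT44 to 76.7 at CT68 in female RNAi. SdhA, the flavoprotein that oxidises succinate, ran only from 108 TPM at CT38 to 153 at CT42 in the same libraries. The split crossed the complexes, since ND-75 and ND-49 are both core subunits of complex I.

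The shared libraries formed runs. In male controls, CT40 to CT46 had summed levels of 17943 to 18873 TPM, while CT36 and CT38 just before had 14172 and 12652. In male RNAi, CT30 to CT38 had 10883 to 13046 TPM and CT40 to CT46 had 12122 to 14810. In female RNAi the 7 libraries from CT50 to CT62 had 11046 to 13875 TPM, and the 4 from CT64 to CT70 had 16840 to 18994. The corresponding female controls did not show that step, with 15319 to 18269 and 15881 to 18083 TPM. Other measures moved with these runs. mt:lrRNA was 146725 to 194668 TPM at CT30 to CT38 and 95959 to 113226 at CT40 to CT46 in male RNAi. In male controls it was 156280 and 173072 TPM at CT36 and CT38, and 65432 to 88909 at CT40 to CT46. In the female RNAi libraries it was low in both runs (13041 to 34797 and 10925 to 25415 TPM). The median log2 deviation of 85 cytosolic ribosomal protein genes was −1.83 to −1.41 in male RNAi at CT30 to CT38 and −0.88 to −0.50 at CT40 to CT46. In female RNAi it was −0.09 to 0.76 at CT50 to CT62 and 1.12 to 1.59 at CT64 to CT70. Female controls had 0.97 to 1.49 and 1.02 to 1.45 at these times. The median deviation of all tested genes in female RNAi was −0.15 to 0.02 and then 0.06 to 0.09. The part of these measures in the members' levels was not tested.

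**Figure D2:**
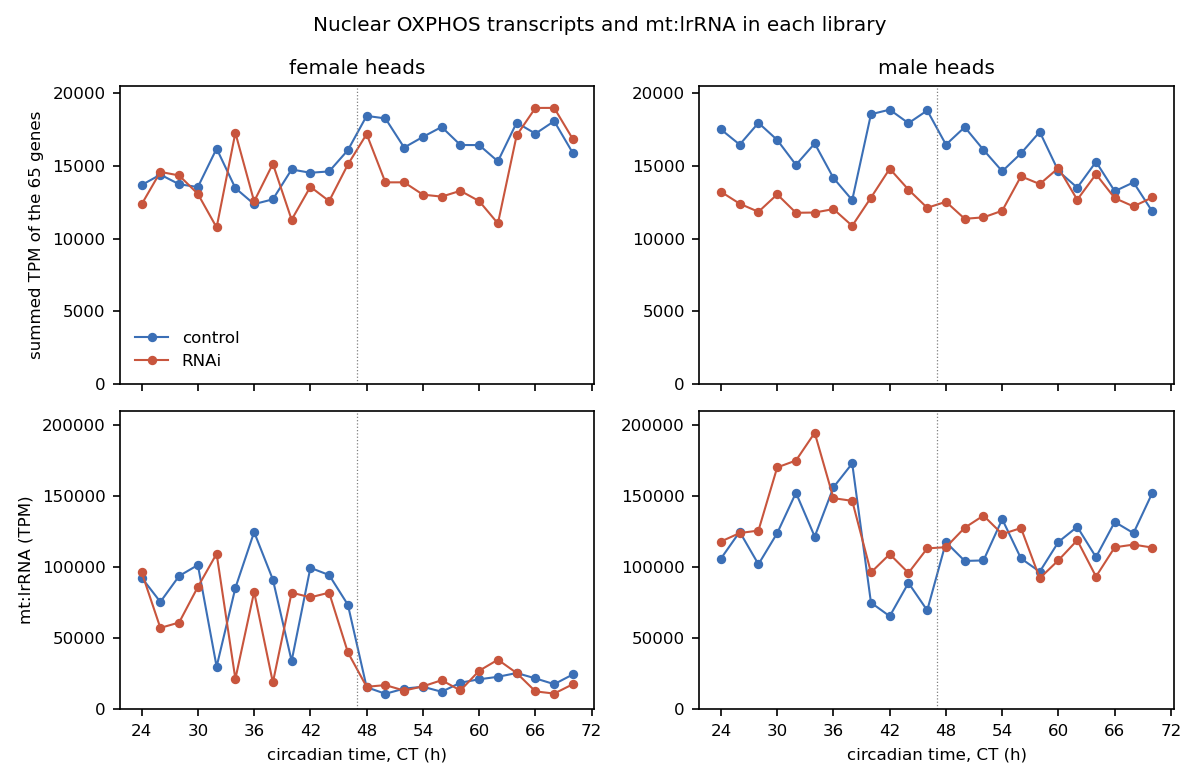
Summed TPM of the 65 genes (top) and mt:lrRNA in TPM (bottom) by CT in hours, in female (left) and male (right) heads. Each point is 1 library and the dotted line parts the first from the second day. In males the RNAi sums lie below the control sums at each CT up to CT58, and female mt:lrRNA is low on the second day.

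The first question was whether these genes differ between Achl RNAi and control heads. In males 57 of 65 were lower with RNAi and none higher (87.7%, against 53.5% lower and 4.61% higher among 10568 tested genes, limma on log2(TPM + 1), adjusted p below 0.05). The median log2 change was −0.39, against −0.16 over all genes. Because most genes were lower in TPM, the change was also taken after each library was centred on its median gene. It then had 39 members lower and none higher (17.7% of all genes were lower, and 1549 of 10568 higher), with a median of −0.23. Every complex took part in the 57 uncentred calls. In complex I 31 of 33 genes fell, and in complex II 4 of 4. In complex III 5 of 7 fell, in complex IV 7 of 10 and in complex V 10 of 11. Complex I core subunits fell in 7 of 7 cases and accessory subunits in 24 of 26. The 8 that did not pass were the 5 copies, ND-B12, ND-B18 and UQCR-11.

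ND-15, an accessory subunit of complex I on chromosome 2L, gave the lowest p of complex I in both sexes. In males it had 243.9 to 382 TPM (median 314) in controls and 193 to 275 (median 239) in RNAi. The ranges overlapped, but ND-15 was lower in RNAi at 23 of 24 CT (log2 change −0.43, SE 0.05, limma adjusted p 3.03e-13). In females it had 249.7 to 355 TPM (median 315) in controls and 182 to 309 (median 259.8) in RNAi. It was lower with RNAi at 24 of 24 CT although the ranges overlapped (log2 change −0.28, SE 0.05, adjusted p 2.71e-07).

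Before centring, complex II, which has no mitochondrial subunit, was lower in all 4 genes in both sexes. Of all genes 53.5% were lower in males and 55.7% in females. In centred female libraries below 50000 TPM of mt:lrRNA no gene of the complex passed (SdhA 0.03, SdhB 0.006, SdhC −0.003, SdhD −0.04). Above it SdhC (−0.41) and SdhD (−0.46) were lower, SdhA (0.18) was higher and SdhB (−0.09) did not pass. Both settings were added after the data were seen. SdhA had 149.5 to 187 TPM (median 169.9) in male controls and 136 to 168 (median 152) in male RNAi. The ranges overlapped, and its change was the smallest called in males (log2 −0.15, SE 0.03). After centring it was 0.01 and did not pass (adjusted p = 0.795). SdhD, a membrane anchor of the complex, had 92.9 to 152 TPM (median 127) in female controls and 53.2 to 148 (median 97.5) in female RNAi. It was lower at 21 of 24 CT despite overlapping ranges (log2 change −0.37, SE 0.07).

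In complex III, UQCR-14 had 416 to 749 TPM (median 601) in male controls and 365 to 555 (median 457) in male RNAi. The ranges overlapped, and it was lower at 22 of 24 CT (log2 change −0.38, SE 0.06). In complex IV, COX7A had 379 to 539.8 TPM (median 459) in male controls and 315 to 429 (median 375) in male RNAi, with overlap. It was lower at 22 of 24 CT (log2 change −0.29, SE 0.05), and after centring the change of −0.13 no longer passed (adjusted p = 0.113). In complex V, ATPsynE, a subunit of the membrane part, had 223 to 314 TPM (median 269) in male controls and 174 to 262 (median 219) in male RNAi, with overlap. It was lower at 23 of 24 CT (log2 change −0.33, SE 0.05). The steepest fitted change in males was in a widely varying gene: ND-B22 had 43.7 to 151 TPM in controls and 18.99 to 101 in RNAi, with overlapping ranges (log2 change −0.66, SE 0.19).

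**Figure D3:**
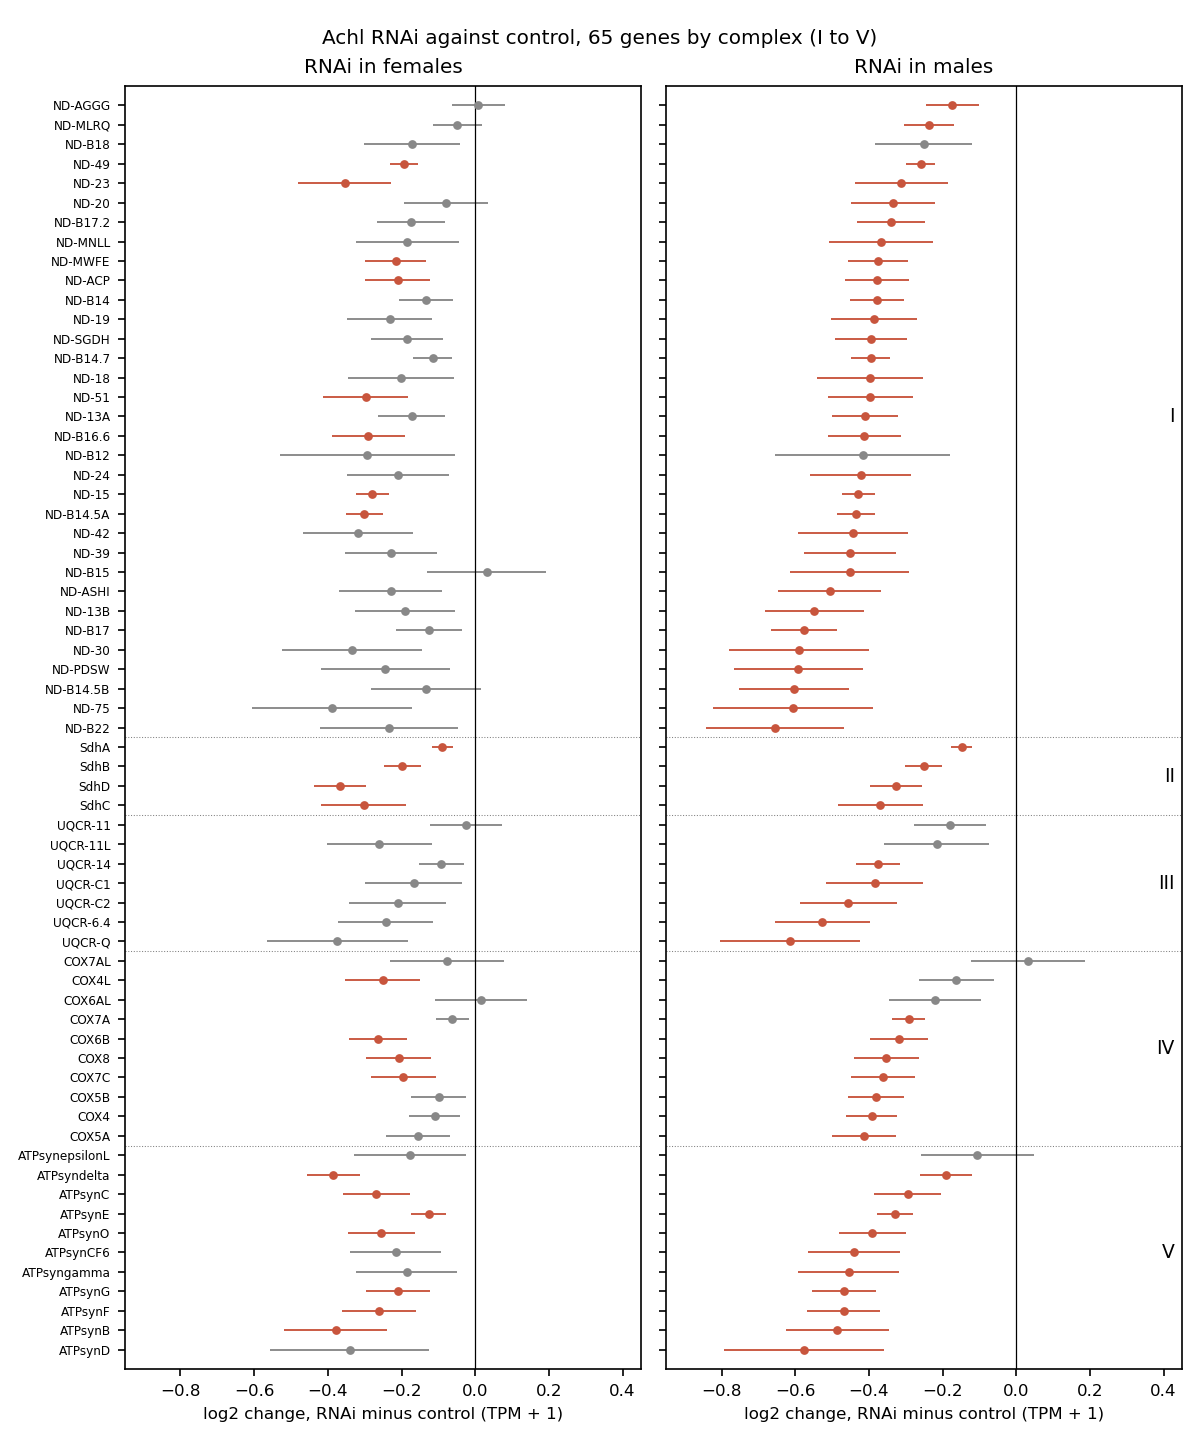
Log2 change with RNAi (points) and SE (bars) of each of the 65 genes in females (left) and males (right), on log2(TPM + 1), grouped by complex and ordered by the male change. Red marks genes lower at an adjusted p below 0.05, 23 in females and 57 in males, and grey marks the others.

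In females 23 of 65 members were lower with RNAi and none higher (35.4%, against 55.7% lower and 4.7% higher of all genes). The median log2 change of −0.21 was near the −0.18 of all genes, and after centring 4 members were lower (6.15%, against 11% lower and 11.2% higher of all genes). Over both days, then, the share of members called in females was below that of all genes in each direction and on both scales. Among centred female libraries above 50000 TPM of mt:lrRNA, a setting added after the data were seen, 14 members were lower and 7 higher (15% and 17.5% of all genes), SdhA, COX7A and ATPsynE among the higher. By complex, over both days and uncentred, 8 genes of complex I, 4 of complex II, none of complex III, 4 of complex IV and 7 of complex V were lower. ATPsyndelta, a central stalk subunit of the ATP synthase, had 44.7 to 100.5 TPM (median 67.4) in female controls and 37.8 to 91.6 (median 47.8) in RNAi. It was lower at 19 of 24 CT with overlapping ranges (log2 change −0.39, SE 0.07). COX6B, of complex IV, had 366 to 581 TPM (median 446) in controls and 207 to 593 (median 386) in RNAi, and was lower at 19 of 24 CT (log2 change −0.26, SE 0.08). UQCR-Q had the lowest p of complex III and did not pass, with a median of 167 TPM in controls and 123 in RNAi (log2 change −0.37, SE 0.19).

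The effects in the 2 sexes were then compared directly. The male change was below the female change in 58 of 65 members (median difference −0.20, against 0.01 for all genes), but the difference passed in 6, all with a lower male value (5.75% of all genes passed in that direction and 8.37% in the other). ND-B14.7, an accessory subunit of complex I, had medians of 197 and 187 TPM in female control and RNAi and of 201 and 148 in male control and RNAi. Its male change was lower by a log2 difference of −0.28 (SE 0.07, limma adjusted p = 0.00477). The others were ND-B17 (−0.45), UQCR-14 (−0.28), COX4 (−0.28), COX7A (−0.23) and ATPsynE (−0.20). Of these, ND-B14.7, COX7A and ATPsynE are among the 7 least variable members, whose SE were small.

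**Figure D4:**
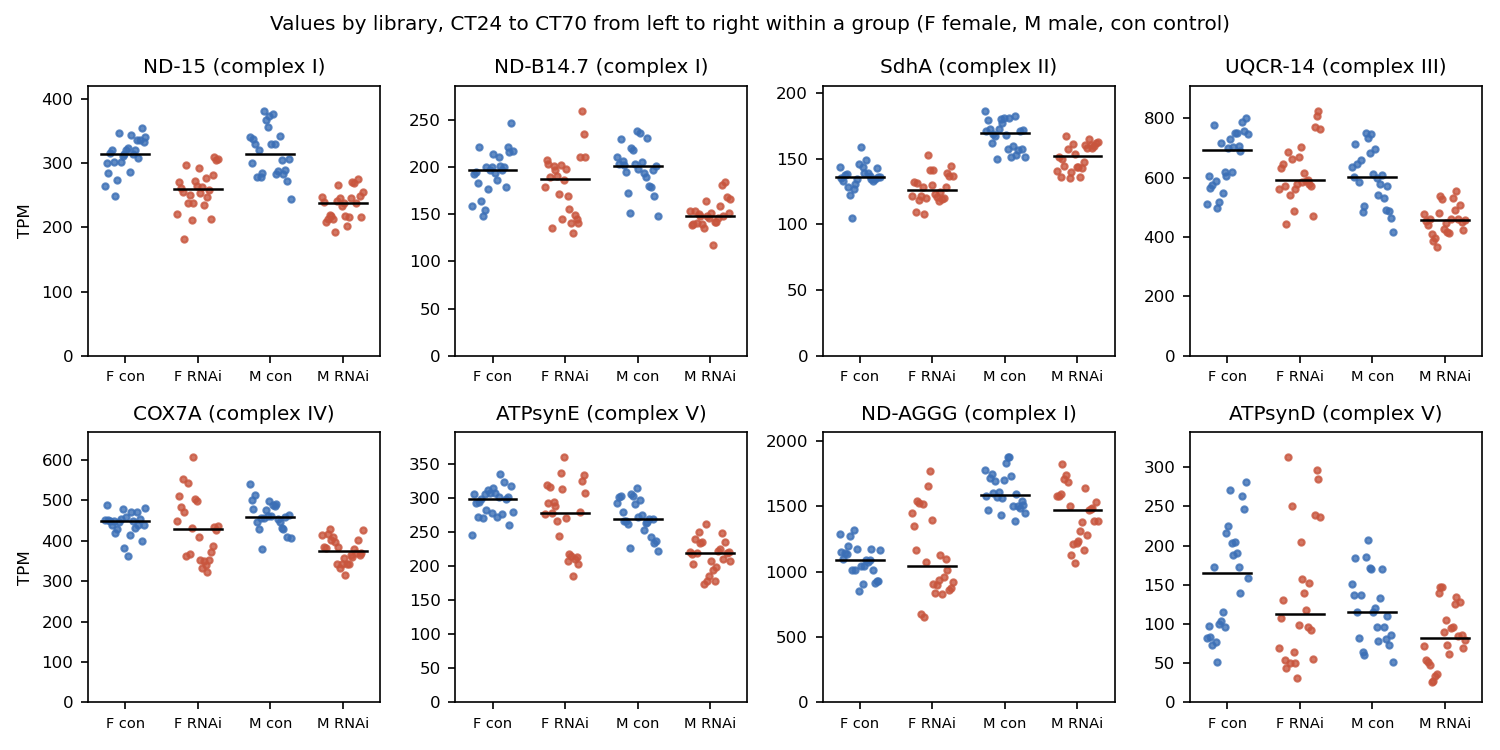
TPM of 8 genes in every library, by group (F female, M male, con control), in order of CT from left to right within a group; the line is the group's median. Male RNAi values of ND-15, ND-B14.7, UQCR-14, COX7A and ATPsynE sit low, female RNAi values of COX7A and ATPsynE split into a high and a low set, and ND-AGGG is lower in females.

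The 2 days were then taken apart. On the first day alone 58 members were lower in male RNAi (53.6% of all genes were lower) with a median log2 change of −0.58, and 12 in female RNAi (42.9% of all genes) with a median of −0.15. On the second day 24 were lower in males (25.8% of all genes) with a median of −0.19, and 45 in females (51%) with a median of −0.24. The interaction of RNAi and sex passed in 18 members on the first day (8.61% of all genes were lower) and in none on the second by limma (3.06% of all genes higher and 1.8% lower), where no member had an unadjusted p below 0.05. Whether the interaction itself differed between days was not tested. A direct test of the difference between days, added after the data were seen, passed in none of 65 in males (0.615% of all genes passed as higher, 0% as lower). There 42 members had an unadjusted p below 0.05, the lowest adjusted p was 0.0917 and the median difference was 0.41. In females it passed in COX7A and ATPsynE, both with a lower RNAi effect on the second day (0.643% of all genes were lower and 2.55% higher). COX7A in female RNAi had a median of 490.2 TPM on the first day and 362 on the second, while controls had 448 and 444. ATPsynE in female RNAi had 294 and 216 TPM, with controls at 293 and 302.

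**Figure D5:**
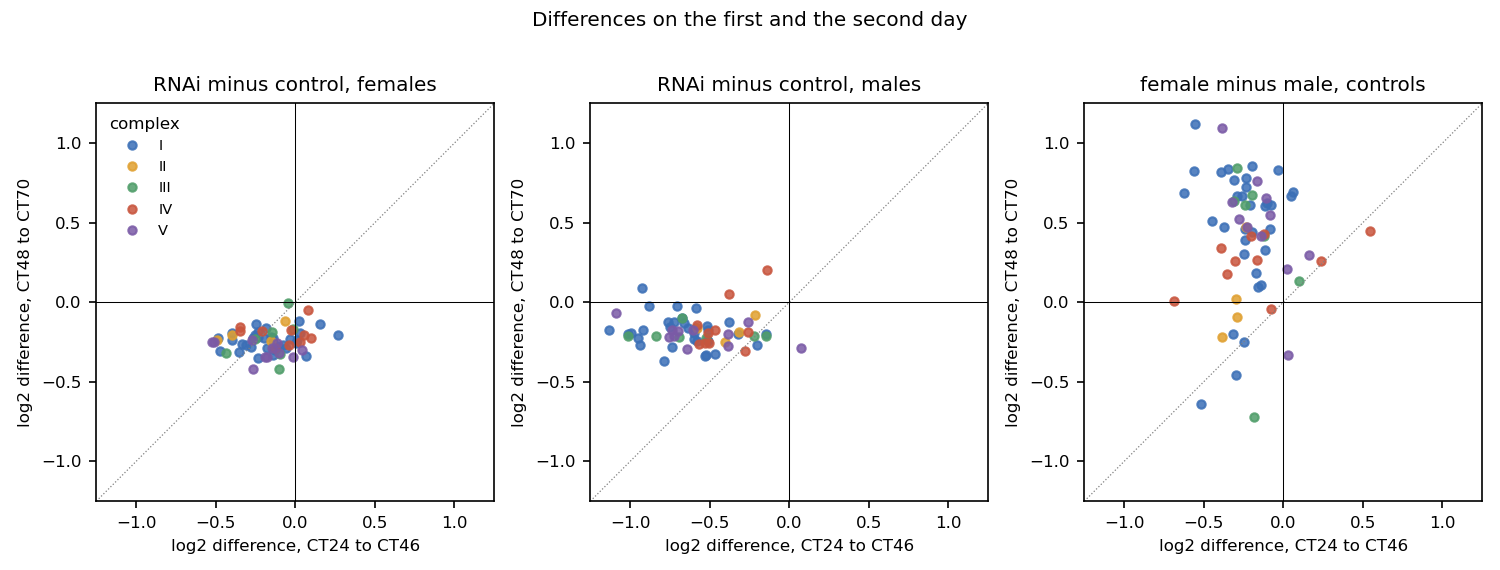
Log2 differences of the 65 genes on the first day (CT24 to CT46, x) and the second (CT48 to CT70, y), coloured by complex: RNAi minus control in females, RNAi minus control in males, and female minus male in controls. The male RNAi points lie furthest from 0 on the first day, and most of the sex differences change sign between days.

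Over time within groups, female controls had 49 members higher and 2 lower on the second day than on the first (47.3% and 12.4% of all genes). Female RNAi had 40 higher and 5 lower (50.1% and 8.41%). In male controls none passed by limma (0.00946% of all genes higher and 0.0946% lower), and 13 had an unadjusted p below 0.05. In male RNAi 3 passed, all higher (12.9% of all genes were higher and 0.53% lower): ND-B14.5A, ND-B22 and the copy COX4L. Taking 1 gene of each complex in female controls, the median went from 291 TPM on the first day to 414 on the second for COX5A and from 987 to 1563 for ATPsynC. It went from 171 to 234 TPM for SdhC and from 307 to 479 for UQCR-6.4. ND-MWFE, the lowest p of complex I, was higher on the second day at 12 of 12 matched times (log2 difference 0.45, SE 0.10). These rises came with the fall of mt:lrRNA in female heads, whose part was not tested. Among female libraries below 50000 TPM of mt:lrRNA, where the first day has 2 control libraries, no member passed in controls by limma (0% of all genes as higher, 0.0757% as lower) and 4 had an unadjusted p below 0.05. In female RNAi, ND-51, a core subunit of complex I, had medians of 173 and 295 TPM on the 2 days (log2 difference 0.72, SE 0.13), and SdhD had 78.0 and 110.0.

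Sex differences in controls were also taken day by day. Over both days 11 members were higher and 8 lower in females than in males (27.7% and 40.5% of all genes). On the first day 1 was higher and 16 were lower (13.6% and 42.3%), and on the second 49 were higher and 6 lower (41% and 35.1%). ATPsynD, a peripheral stalk subunit, changed sides: female controls had a median of 96.8 TPM on the first day and 204 on the second, male controls 144 and 96.1. The log2 difference of females from males was −0.39 (SE 0.27) on the first day and 1.09 (SE 0.16) on the second, of which only the second passed. Cytosolic ribosomal protein genes had 83 of 85 higher in female controls, and mt:lrRNA was lower in females, and their part in these differences was not tested. Members on the X chromosome (12) had 3 higher and 1 lower, and those on other chromosomes (53) had 8 higher and 7 lower. Among RNAi heads 45 members were higher and 9 lower in females (32.7% and 41.3% of all genes).

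SdhA was lower in females on each day and in the other settings tried. It had 105 to 159 TPM (median 136) in female controls and 149.5 to 187 (median 169.9) in male controls. The ranges overlapped slightly and females were lower at 24 of 24 CT (log2 difference −0.30, SE 0.03, limma adjusted p 1.50e-16). SdhB, the iron-sulfur subunit beside it, was lower at 22 of 24 CT (−0.19, SE 0.05), as was ND-49, the only member on chromosome 4, at 23 of 24 (−0.26, SE 0.04). ND-B14.5A was lower by a log2 difference of −0.25 (SE 0.05). Neuron markers were lower in female than in male controls for 7 of 7 genes and glia markers for 8 of 8 (40.5% of all genes). The summed neuron markers had 1141 to 1770 TPM in female controls and 1846 to 2354 in male controls, and the glia markers 1681 to 1989 and 2626 to 3182. Whether these bear on the members lower in females was not tested.

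ND-AGGG, ND-MLRQ and UQCR-11 ran against most called members between the sexes in controls over both days. They did so between the days in female RNAi as well. On the first day alone most called members were lower in female controls. ND-AGGG (log2 difference −0.52) and ND-MLRQ (−0.30) were then among them, and UQCR-11 (−0.19) did not pass. Among female libraries below 50000 TPM of mt:lrRNA, the day differences of these 3 in female RNAi turned sign. COX7A and ATPsynE were the other two members lower on the second day in female RNAi, and the copy COX7AL was the eighth member lower in female than in male controls (log2 difference −0.34, SE 0.15, limma adjusted p = 0.0445). ND-AGGG had 852 to 1319 TPM (median 1089) in female controls and 1389 to 1876 (median 1587) in male controls. It was the only member whose 2 control groups did not overlap, while 11.3% of all genes did not (log2 difference −0.58, SE 0.07, limma adjusted p 1.77e-11). UQCR-11 had 442 to 1067 TPM (median 705) in female and 745 to 1097 (median 942) in male controls, with overlap (log2 difference −0.45, SE 0.10). ND-MLRQ was lower at 24 of 24 CT with overlapping ranges (−0.38, SE 0.07). On the second day UQCR-11 was lower in female controls (median 837 TPM on the first day, 583 on the second) and in female RNAi (867 and 556), while most members were higher. ND-MLRQ was lower in both female groups on the second day, and ND-AGGG in female RNAi, from a median of 1425 to 914 TPM. Of the 12 members on chromosome arm 3L these 3 lie nearest the centromere, at 3L:23339326-23345936 (ND-MLRQ), 3L:24976254-24977118 (ND-AGGG) and 3L:25120709-25126171 (UQCR-11) in BDGP6 (dm6), all on the plus strand. They are short, at 384, 462 and 425 bases of transcript length, and rank 1, 2 and 4 by mean TPM. COX8 and COX7C, of similar length (436 and 423 bases), rose in female controls on the second day (log2 difference 0.38, SE 0.11, and 0.35, SE 0.11). The members under 500 bases other than copies (9) had none higher in female than in male controls. The 3 of them that were lower were ND-MLRQ, ND-AGGG and UQCR-11 themselves. The 51 longer ones had 10 higher and 4 lower. Among all 688 tested genes under 500 bases, 192 were higher and 148 lower. Whether position or length bears on the levels of ND-MLRQ, ND-AGGG and UQCR-11 was not tested.

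A daily rhythm was tested in each group with a cosine of 24 h. No member passed in female controls, male controls or male RNAi by limma (1.6%, 1.26% and 1.02% of all genes passed), where 2, 0 and 4 had an unadjusted p below 0.05. In female RNAi 2 passed (1.4% of all genes): ATPsynE, with a peak-to-trough ratio of 1.35 and a peak at CT44.8 (adjusted p = 0.0145), and ND-B14.5A, with a ratio of 1.35 and a peak at CT44.0 (adjusted p = 0.0268). Neither passed after centring, where the lowest adjusted p of a member was 0.127. A difference of rhythm between RNAi and control in females or males, or between the sexes in controls, passed in no member by limma (0.0189%, 0% and 0.00946% of all genes passed). At an unadjusted p below 0.05 there were 3, 2 and 1. Fitted to the second day alone, 54 members passed in female RNAi (28.9% of all genes), and 28 in male RNAi on the first day alone (23.3%). Within 1 cycle a rhythm and a run of low libraries cannot be told apart, and these are the stretches with the runs at CT50 to CT62 and CT30 to CT38.

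Other genes of energy metabolism were counted beside the members. Of all tested genes, 53.5% were lower and 4.61% higher in male RNAi, and 55.7% lower and 4.7% higher in female RNAi. The 9 subunits with other symbols had 8 lower in male RNAi and none higher, and in females 2 lower and 1 higher. The 13 subunits encoded by mitochondrial DNA went the other way, with 6 higher and none lower in male RNAi and 4 higher and none lower in female RNAi. Their summed level had a median of 73930 TPM in male controls and 92566 in male RNAi. Among females the median was 32145 TPM for controls and 31518 for RNAi. Of the TCA cycle genes 9 of 19 listed were in the table, and 8 were lower in each sex. All 12 glycolytic genes were lower in male RNAi, and in female RNAi 8 were lower and 1 higher. Lower in male RNAi were also 5 of 5 assembly factors, 4 of 5 adenine nucleotide carriers and porin genes, 7 of 9 regulators of nuclear respiratory genes, 66 of 73 mitochondrial and 82 of 85 cytosolic ribosomal protein genes. The lowering in male RNAi was thus shared by other lists and by most tested genes. The members' median of −0.39 lay between those of the mitochondrial (−0.36) and cytosolic (−0.51) ribosomal protein genes.

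Markers of other tissues were counted as well, beside the 53.5% of all genes lower in male RNAi and the 55.7% lower in female RNAi. Fat body markers were lower in male RNAi for 7 of 8 genes, with summed levels of 3473 to 4287 TPM in controls and 1655 to 2871 in RNAi. The 10 photoreceptor markers had 7 lower, with sums of 36250.0 to 55906 TPM in male controls and 24434 to 35631 in male RNAi. In females 8 photoreceptor markers were lower, with sums of 38465 to 70408 and 22899.5 to 43982 TPM. Muscle markers, from a tissue rich in mitochondria, had 4 of 11 lower in male RNAi, with sums of 2213 to 3329 and 2213 to 3043 TPM that overlapped almost fully. Neuron markers had 1 of 7 lower in male RNAi, glia markers 7 of 8 and hemocyte markers 3 of 5. In female RNAi 7 of 11 muscle, 4 of 8 fat body, 5 of 7 neuron and 8 of 8 glia markers were lower and none higher, and hemocyte markers had 2 of 5 higher and 2 lower. Their part in the members' change was not tested.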

How the data were processed

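Gene values were deposited by the authors as TPM, 1 column per library, which were quantified with RSEM and STAR on dm6 per the submitters' processing notes (versions not stated there). The members and gene lists were chosen with earlier results of these data known. From these TPM, the 10568 genes that reached 1 TPM in 24 or more of the 96 libraries were fitted together with limma 3.58.1 (R 4.3.3; trend and robust options) on log2 of TPM plus 1, with a mean, cosine and sine of 24 h for each group. A log2 difference on this scale understates that of low genes. P-values were two-sided for contrasts, came from F tests for rhythms, and were adjusted by Benjamini-Hochberg over all fitted genes with a threshold of 0.05. Day terms were added in a second fit. Genes named are, in each complex, the highest in TPM and the lowest p of each comparison, members called against the majority, the 3 lowest p of each rhythm test, and copies; other genes, such as ND-75, ATPsynD and COX8, were chosen after their values were seen. The scripts were tested on simulated data. Alternatives were a pseudocount of 0.1, no filter, a mean of at least 5 TPM, median centring, rescaling without mitochondrial genes, limma without the trend and robust options, single days, female libraries split at 50000 TPM of mt:lrRNA and same-CT blocks. Covariate, male-library and combined settings, and the test of the RNAi effect between days, were added after the data were seen. Positions, and overlaps with other genes on the same (7 members) or the opposite strand (23), come from Ensembl 115 (BDGP6, which is dm6). Sequences were not used here. Figures were drawn with matplotlib 3.10.9.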

Additional observations from a re-analysis of the deposited data

Results flagged for a closer look

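For 6 genes the RNAi effect differed between the sexes by the interaction test (5.75% of all genes passed as lower and 8.37% as higher). On log2(TPM + 1), the male minus the female effect was −0.28 for ND-B14.7, −0.45 for ND-B17, −0.28 for UQCR-14, −0.28 for COX4, −0.23 for COX7A and −0.20 for ATPsynE, with limma adjusted p from 0.00477 for ND-B14.7 to 0.0403 for COX4. In females the RNAi effect differed between the days for 2 genes, in a test added after the data were seen. The second minus the first day was −0.33 for COX7A and −0.34 for ATPsynE (limma adjusted p 0.00384 and 0.00768). Of all genes, 0.643% passed as lower and 2.55% as higher in that test. In the female RNAi group ATPsynE ran from 185 TPM at CT56 to 359.9 at CT46, and COX7A from 324 at CT58 to 607 at CT42. The day of collection and the level of mt:lrRNA largely go together in females and cannot be cleanly told apart.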

How the results depend on the processing

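Counts of members called, out of 65, moved by over 1.5 times in these settings. For RNAi in females the count of 23 was 4 after median centring, 36 after rescaling without mitochondrial genes, 12 on the first day, 45 on the second, 8 and 4 on these days after centring, 54 with mt:lrRNA as a covariate and 1 in centred female libraries below 50000 TPM of mt:lrRNA. The 8 on the centred first day were 6 higher and 2 lower. Above 50000 TPM the count was 33 (30 lower, 3 higher), and 21 after centring (14 lower, 7 higher), where all 23 had been lower. For RNAi in males the 57 were 24 on the second day and 16 on it after centring. The interaction, at 6, was 10 with female libraries above 50000 TPM (8 lower, 2 higher), 1 below it, 18 on the first day, 0 on the second, 26 and 0 on these after centring, 10 with the covariate and 18 in centred libraries above 50000 TPM (15 lower and 3 higher: ND-23, ATPsyndelta and SdhD). For sex in controls the 19 were 31 after centring, 53 below 50000 TPM, 55 on the second day, 56 on it after centring and 54 with the covariate. For sex in RNAi the 54 were 27 after rescaling, 23 above 50000 TPM, 24 on the first day and 28 with male libraries below 130000 TPM. Rhythm in female controls went from 0 to 1 with a pseudocount of 0.1. In female RNAi the 2 were 0 after centring, 5 after rescaling, 0 above and 7 below 50000 TPM, 0 on the first day and 54 on the second. Rhythm in male RNAi was 28 on the first day, and the change of rhythm in females was 2 on the second. The day difference in female controls was 0 and in female RNAi 1 below 50000 TPM. In male controls it was 1 after centring. In male RNAi the 3 were 1 after centring and 1 after rescaling, 8 and 11 with female libraries above and below 50000 TPM. The RNAi effect by day was 4 after centring and 1 below 50000 TPM in females, and 9 below it in males. The cause was not tested for these, and fewer libraries enter the single-day and split fits.

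Among 54 changes of named genes, 692 alternative values gave 566 with the same call, 93 that no longer passed and 33 of the other sign. The sign turned for ATPsynE in female RNAi after centring (0.042), above 50000 TPM (0.023, centred 0.22), on the first day (0.045, centred 0.24), and for its interaction on the second day (0.025). It turned for SdhA with centring in females (0.078 in all, 0.13 and 0.024 by day, 0.18 and 0.031 above and below 50000 TPM) and in males (0.013 in all, 0.023 and 0.0024 by day). It also turned with centring for COX6B in females below 50000 TPM (0.037) and for ND-49 in females on the second day (0.0017). Sex in controls turned for COX7AL on the second day (0.0077) and for UQCR-11 with the covariate (0.036). Sex in RNAi turned for ND-AGGG above 50000 TPM (0.0064), ND-B14.5A on the centred first day (0.033), ND-MLRQ (0.14 above 50000 TPM, 0.012 on the centred first day, 0.15 with the covariate), UQCR-11 (0.16, 0.0022 and 0.28 in the same) and SdhD (0.041 below 50000 TPM, 0.031 on the second day, 0.013 on it when centred). Second against first day in female RNAi turned below 50000 TPM for ND-AGGG (0.11), ND-MLRQ (0.085), UQCR-11 (0.21) and UQCR-6.4 (−0.070). The replicate block, with the same CT as block, gave 24, 57, 6, 19 and 56 for RNAi in females and males, the interaction and sex in controls and in RNAi. Same-CT libraries share only a time, so these are no pairs of animals.

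The day term could not be fitted among female libraries above 50000 TPM, all of which are from the first day. Depth is unknown. Single libraries were not left out in turn, since each group has 24.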
